A study of Bos taurus with 9 samples.

Results

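The Wnt ligands, receptors, antagonists and transducers were followed in bovine ear fibroblasts (BEFs) and in the chemically induced adipocyte-like cells (CiADCs) made from them. The members were 52 of the 21512 genes in the table. They were taken by gene symbol alone, as every WNT, FZD, SFRP or DKK gene with a number, plus FRZB, WIF1, LRP5, LRP6, AXIN1, AXIN2, CTNNB1, LEF1, TCF7, TCF7L1, TCF7L2 and RSPO1 to RSPO3. The rule used symbols and no measured value, though it was set with earlier results of these data known. By role they were 19 WNT ligands, 3 R-spondins, 13 receptors, 6 antagonists that bind the ligand, 4 Dickkopf antagonists and 7 intracellular genes.

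Gene expression was measured by RNA-seq in 3 samples each of BEFs on day 0, CiADCs-3d and CiADCs-6d, all of wild-type genotype. BEFs are fibroblasts grown from ear skin, called AnEFs or BearF cells in the labels, and were kept in medium with serum. The CiADCs were BEFs placed in N2B27, a defined medium, that held 10 µM RepSox (a blocker of TGF-beta receptor signalling), 500 µg/mL VPA (a histone deacetylase inhibitor) and 1 µM TTNPB (a retinoid agonist), and were harvested on day 3 or day 6 of that treatment. Cells cultured equally long without compounds are not among the samples, so effects of compounds, medium and culture time cannot be told apart. The sources do not say whether the samples of a group came from separate animals or separate inductions, and p-values then measure the spread between these samples, which may be technical.

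Wnt proteins are secreted lipid-modified ligands that bind frizzled (FZD) receptors together with LRP5 or LRP6, which stops the breakdown of beta-catenin (CTNNB1) and lets it act with the LEF and TCF factors. Other branches work through frizzled without beta-catenin and are typically started by WNT5A, WNT5B and WNT11. SFRPs, FRZB and WIF1 bind the ligand outside the cell, Dickkopf proteins bind LRP5 and LRP6, and R-spondins keep frizzled on the cell surface. In mesenchymal precursors the beta-catenin branch is known as a brake on fat cell formation, with WNT10B as its classic ligand.

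Levels are given as FPKM, the fragment counts that the authors scaled to gene length and library size, because this scale allows genes to be compared. Changes are log2 fold changes ± SE from edgeR's quasi-likelihood test on the counts, with p-values adjusted by Benjamini-Hochberg over the 14020 genes tested. A gene is said to have risen or fallen only where the adjusted p was under 0.05 and the log2 fold change was at least 1 in size. Counts per sample summed to between 18509244 and 24071580. The samples numbered 1 of CiADCs-3d and of CiADCs-6d stood apart from the others of their group. Their squared differences were 33.1 to 49.97 times those expected from counting noise alone. This ratio was 14.8 and 13.2 between the remaining samples of the 2 groups and 2.40 to 8.83 among BEFs. Where leaving out the CiADCs samples numbered 1 changed a call of a member, the value without them is given.

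The labels call the CiADCs induced adipocytes. All 8 fibroblast markers examined stayed at 1 FPKM or more in every group, with a summed level of 16830 to 17090 FPKM in BEFs, 5798 to 7937 on day 3 and 3891 to 4957 on day 6. By mean FPKM, COL1A1, COL1A2, DCN, LUM and VIM were lower than in BEFs on both days. The rest of the list differed, with PDGFRB at 38.8, 63.5 and 55.1 FPKM, COL3A1 at 1958, 2283 and 1703, and THY1 at 528.8, 531.6 and 262.2. The 8 adipocyte markers summed to 21.5 to 25.8, 16.4 to 30.03 and 10.96 to 12.5 FPKM, and 3, 5 and 6 of them reached 1 FPKM, and the genes of the list did not go one way. PPARG, the master regulator of fat cell formation, averaged 2.17, 7.09 and 3.46 FPKM, LPL 0.877, 4.60 and 2.13, ADIPOQ 0.423, 1.87 and 1.55, and CEBPA 0.420, 0.387 and 1.98. FABP4, which made up most of the sum in BEFs, went from 17.2 to 8.58 and 1.4 FPKM, PLIN1 from 1.44 to 1.14 and 1.12, and CIDEC and LEP were at 0.16 or less on both days. Of the genes for other cell types, VWF of endothelium went from 0.860 to 41.2 and 27.8 FPKM while CDH5, which defines that cell type, was at 0.02 or less on both days, and the 4 endothelial markers summed to 2.29 to 3.37, 36.6 to 52.1 and 23.5 to 37.3 FPKM. CRABP1, a retinoid-binding gene also used as a dermal papilla marker, went from 11.1 to 1925 and 1767 FPKM, and its list of 4 summed to 9.59 to 15.4, 1743 to 2045 and 1475 to 2051. The 4 cartilage markers summed to 47.7 to 48.9 FPKM in BEFs and to at most 14.1 in the CiADCs. ACAN made up most of the BEFs sum and averaged 41.3, 5.01 and 3.74 FPKM, and SOX9 averaged 5.80, 3.94 and 3.95. COL2A1 went the other way, from 1.06 to 3.81 and 3.10, and COL9A1 was at 0.0567 or less. The 5 keratinocyte markers summed to 25.51 to 35.95 FPKM in BEFs, 37.24 to 47.78 on day 3 and 39.91 to 44.53 on day 6. All CiADCs samples thus lay above BEFs. CDH1 averaged 10.46, 32.23 and 21.83 FPKM. KRT5, at 16.96, 8.337 and 17.92, and KRT14, at 1.813, 0.9367 and 1.607, were lower on day 3 than in BEFs. KRT1 and EPCAM were at 0.4433 or less. The melanocyte, blood and muscle lists summed to under 11, with MLANA, TYR, PTPRC and MYOD1 at 0. The blood list nevertheless summed to 0.41 to 0.73 FPKM in BEFs, 2.19 to 4.63 on day 3 and 3.76 to 7.93 on day 6. Its CD68 averaged 0.457, 2.98 and 5.12 FPKM, and MITF of the melanocyte list 3.79, 7.18 and 8.8. Going the other way, PMEL of the melanocyte list averaged 1.99, 1.41 and 1.08 FPKM, and DES of the muscle list 2.38, 0.79 and 0.407. The part of these shifts in the results was not tested, and in bulk samples fewer cells of a type and less RNA per cell cannot be told apart.

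Of the 52 members, 38 passed the filter on low counts and were tested. On day 3, 14 of the 38 were higher than in BEFs (36.8%, against 18.2% of all tested genes) and 6 were lower (15.8%, against 9.94%). On day 6, 16 were higher (42.1%, against 21.9%) and 5 were lower (13.2%, against 13.4%). The median log2 fold change of the tested members was 0.52 on both days, where the median over all tested genes was 0.01 and 0.03. Both comparisons use the same BEFs samples. The shares called higher include WNT6, SFRP5, WIF1 and FZD10, which had under 10 counts in every BEFs sample. They passed the filter through the CiADCs samples, so hardly any call but higher was open to them. The filter was the same for all tested genes. The genes above the threshold on both days were WNT2B, WNT6, WNT7B, WNT10B, WNT11, FZD4, FZD5, FZD7, FZD10, SFRP2, SFRP4, SFRP5, WIF1 and AXIN2, and those below it on both days were WNT5B, WNT9A, DKK2 and TCF7L1. A further 15 tested members were called on neither day. In the 20 calls of day 3 and the 21 calls of day 6, no sample of the CiADCs overlapped the BEFs, as was so for 98.9% and 99.4% of the calls over all genes.

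**Figure D1:**
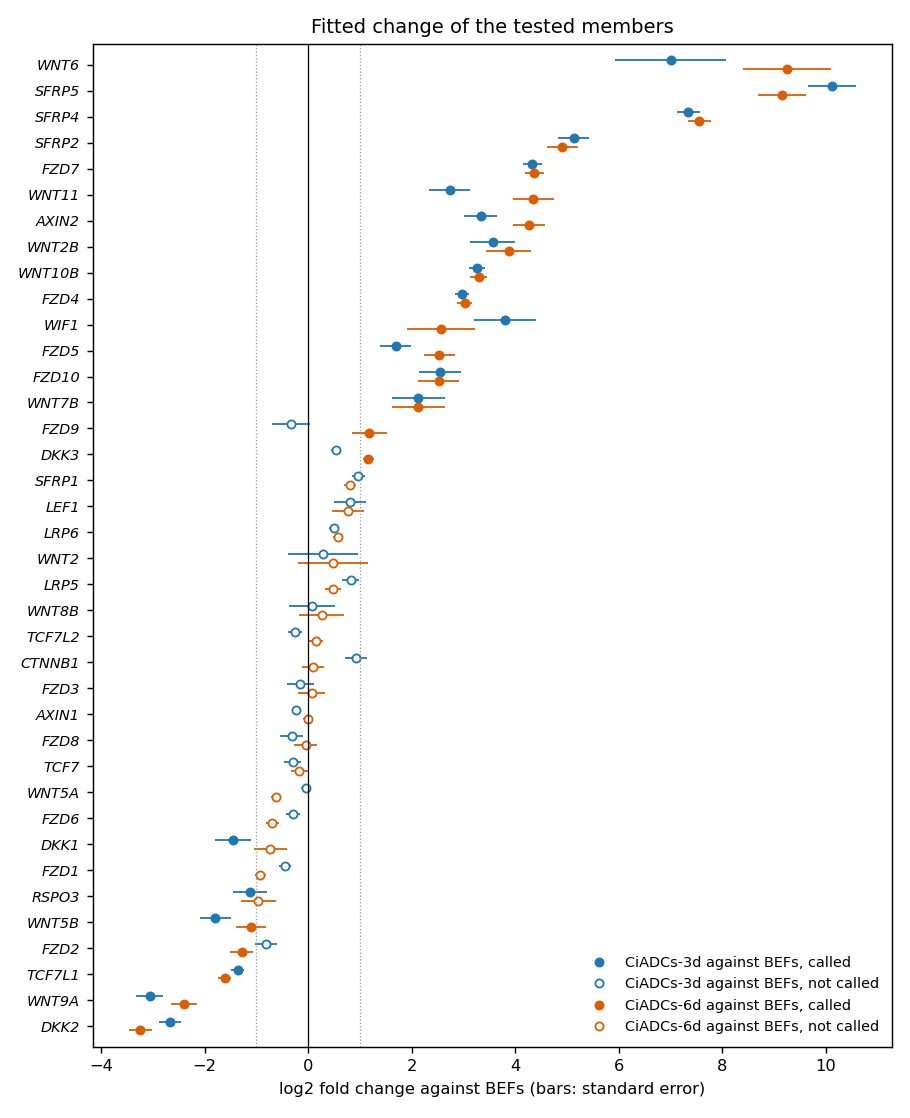
Log2 fold change against BEFs (x axis) of the 38 tested members (y axis, ordered by the day 6 value), with bars for the standard error, filled points for called and open points for not called. WNT6, SFRP5, SFRP4, SFRP2 and FZD7 lie highest on day 6, and DKK2, WNT9A, TCF7L1, FZD2 and WNT5B lowest. The point of WNT6, which had no count in BEFs, depends on the fit's prior count.

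Among the ligands, the summed level stayed close while its makeup changed. The 19 WNT genes together gave 33.4 ± 4.06 FPKM (SD, n = 3) in BEFs, 33.6 ± 2.34 on day 3 and 40.6 ± 5.22 on day 6. WNT5A and WNT5B made up 85.5% ± 1.72 of that sum in BEFs, 59.2% ± 2.71 on day 3 and 44.99% ± 1.90 on day 6. WNT2B, WNT6, WNT10B and WNT11 together went the other way, from 3.72% ± 0.822 to 34.5% ± 4.77 and 48.3% ± 1.99. Of the 10 ligands tested, 5 rose (50%, against 18.2% of all tested genes on day 3 and 21.9% on day 6) and 2 fell (20%, against 9.94% and 13.4%) on each day.

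WNT10B (ncbi_539337), the ligand best known for holding back fat cell formation, was at 0.46, 0.56 and 0.60 FPKM in BEFs, 4.90, 5.17 and 5.64 on day 3 and 5.80, 5.44 and 5.02 on day 6. All 6 CiADCs samples lay above all BEFs, and the days overlapped. It rose by 3.26 ± 0.16 (adjusted p = 6.59e-09, edgeR) on day 3 and by 3.29 ± 0.16 (adjusted p = 4.92e-09) on day 6, and its standard error was the smallest among the ligands that rose. WNT2B (ncbi_445420), another ligand of the beta-catenin branch, gave 0.31, 0.42 and 0.19 FPKM in BEFs, 1.96, 4.30 and 4.69 on day 3 and 2.87, 5.36 and 5.56 on day 6. On both days its sample numbered 1 was the lowest of the CiADCs and still above every BEFs sample. The rise was 3.56 ± 0.43 (adjusted p = 1.64e-05, edgeR) and 3.87 ± 0.43 (adjusted p = 5.95e-06).

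WNT11 (ncbi_613288), a ligand of the branch without beta-catenin, kept rising between the days. It stood at 0.30, 0.48 and 0.37 FPKM in BEFs, 2.72, 1.55 and 1.89 on day 3 and 3.27, 8.56 and 8.51 on day 6. The groups did not overlap, although the day 6 sample numbered 1 lay near the day 3 samples. WNT11 rose by 2.73 ± 0.39 on day 3 (adjusted p = 7.45e-05, edgeR) and by 4.35 ± 0.39 on day 6 (adjusted p = 9.01e-07), and day 6 exceeded day 3 by 1.62 ± 0.32 (adjusted p = 0.00352). By day 6 WNT11 was the second WNT gene by mean FPKM after WNT5A, though WNT5B at 6.45 ± 2.08 lay within its spread of 6.78 ± 3.04.

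WNT6 (ncbi_505075), whose product acts on beta-catenin in mesenchyme, had no count in any BEFs sample. It was listed at 0.39, 0.73 and 0.64 FPKM on day 3, from 9, 19 and 19 counts, and at 4.25, 1.95 and 2.31 on day 6, from 114, 52 and 54 counts. Every day 6 sample was above every day 3 sample. Taking 3 counts per library as the most that a count of 0 allows, which covers counting error only, WNT6 was at least 5.55-fold higher on day 3 and at least 26.5-fold higher on day 6 (adjusted p = 0.00026 and 4.81e-06, edgeR). The difference between the days was 2.24 ± 0.41 (adjusted p = 0.00369), or 1.56 without both CiADCs samples numbered 1 (adjusted p = 0.00637).

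WNT7B (ncbi_100337066), a ligand better known from epithelia, was the weakest of the ligands that rose. BEFs had 0.30, 0.17 and 0.30 FPKM, CiADCs-3d 2.21, 0.41 and 0.91, and CiADCs-6d 0.87, 1.37 and 1.28. All CiADCs samples were above BEFs, with a spread on day 3 that covered the whole of day 6. Its rise was 2.13 ± 0.52 on both days (adjusted p = 0.00355 and 0.00292, edgeR). The day 3 value rested in part on the sample numbered 1, since it was 1.35 without that sample (adjusted p = 0.0111).

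Of the 3 ligands at 1 FPKM or more in BEFs, WNT9A and WNT5B fell and WNT5A was not called. WNT9A (ncbi_511308), a ligand of joint and skeletal mesenchyme, went from 2.87, 2.72 and 2.96 FPKM in BEFs to 0.45, 0.31 and 0.28 on day 3 and 0.41, 0.48 and 0.78 on day 6. The highest CiADCs sample was far under the lowest BEFs sample. It fell by 3.06 ± 0.26 (adjusted p = 8.62e-07, edgeR) on the log2 scale on day 3 and by 2.39 ± 0.25 (adjusted p = 3.6e-06) on day 6.

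WNT5B (ncbi_508008) was at 11.2, 11.1 and 16.1 FPKM in BEFs, 5.64, 2.0 and 3.29 on day 3 and 4.15, 7.02 and 8.18 on day 6. No CiADCs sample reached BEFs, and the days overlapped. It fell by 1.79 ± 0.30 on day 3 (adjusted p = 0.000262, edgeR) and by 1.11 ± 0.29 on day 6 (adjusted p = 0.00485). The day 6 call rested on single samples, with a log2 fold change of -0.94 without BEFs replicate 3 and -0.86 without CiADCs-6d replicate 1, both under the fold threshold. Without both CiADCs samples numbered 1, WNT5B was higher on day 6 than on day 3 by 1.22 (adjusted p = 0.000287), against 0.69 ± 0.31 (adjusted p = 0.112) with all samples.

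WNT5A (ncbi_530005) was the highest WNT gene by mean FPKM in every group. It was at 14.8, 15.4 and 17.2 FPKM in BEFs, 15.8, 15.7 and 17.2 on day 3 and 12.1, 11.1 and 12.2 on day 6. BEFs and day 3 overlapped, and all day 6 samples were lower than both. The log2 fold change was -0.04 ± 0.10 on day 3 (adjusted p = 0.724, edgeR) and -0.62 ± 0.10 on day 6 (adjusted p = 0.00017), and day 6 against day 3 gave -0.58 ± 0.10 (adjusted p = 0.00215), all under the fold threshold.

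**Figure D2:**
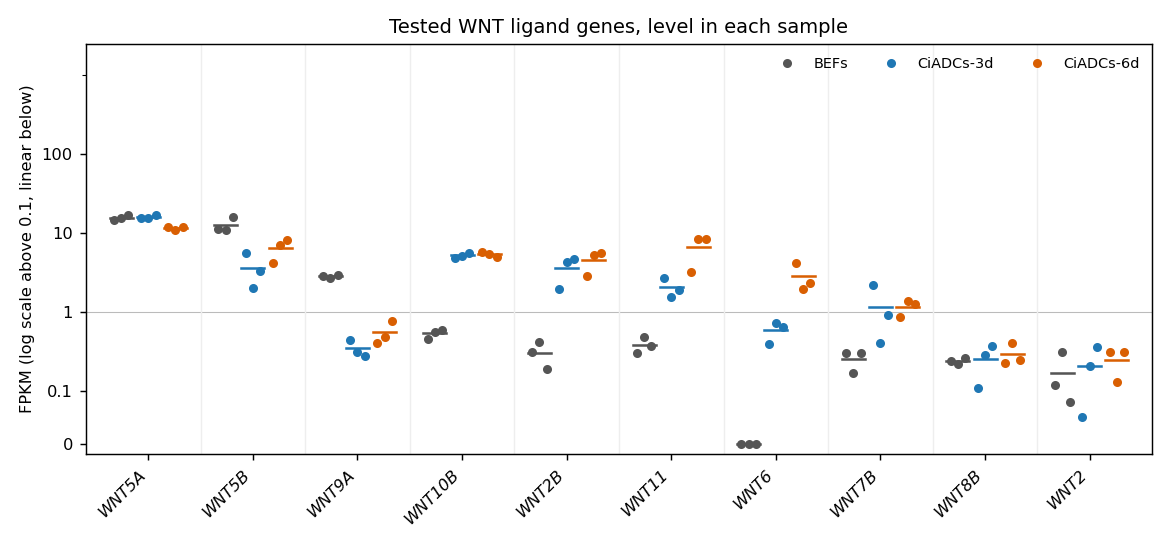
FPKM of the 10 tested WNT genes in each sample (y axis, logarithmic above 0.1 and linear below), with BEFs in grey, CiADCs-3d in blue, CiADCs-6d in orange, points for samples and bars for the mean of 3. WNT5A stays between 11.1 and 17.2 in all 9 samples, WNT9A falls below 1, WNT10B, WNT2B and WNT11 rise above 1 on both days and WNT6 on day 6.

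The remaining ligands were near or at the limit of detection. WNT2 and WNT8B were tested and called in no comparison, with 2 to 19 and 6 to 26 counts per sample. WNT7A, WNT8A and WNT9B had no count in any sample, which allows up to 3 counts per library. WNT1, WNT3, WNT3A, WNT4, WNT10A and WNT16 had at most 16 counts in a sample and were not tested. Of these, WNT10A was at 0 in all BEFs and at 3, 7 and 7 counts in CiADCs-6d, and WNT4 was at 2 to 4 counts in BEFs and 7 to 16 in CiADCs-6d.

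Several WNT genes are direct neighbours in the cattle genome, with no protein-coding gene between them in the RefSeq ARS-UCD2.0 assembly. The pairs are WNT1 with WNT10B, WNT6 with WNT10A, WNT3A with WNT9A, and WNT3 with WNT9B. Apart from WNT3 with WNT9B, the members of a pair stood at unlike levels. WNT10B reached 399 counts in a sample and WNT1 at most 3, WNT6 reached 114 and WNT10A at most 7, and WNT9A had 233 to 253 counts in BEFs where WNT3A had none. WNT3 had at most 5 counts and WNT9B none, too few to show a difference in level.

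R-spondins were scarce. RSPO3 (ncbi_534650) was at 1.85, 2.02 and 2.18 FPKM in BEFs, 1.08, 0.74 and 1.00 on day 3 and 0.49, 1.54 and 1.17 on day 6. All CiADCs samples were below BEFs. It fell by 1.12 ± 0.33 on day 3 (adjusted p = 0.0113, edgeR), a call that was lost without CiADCs-3d replicate 2 (-0.98, adjusted p = 0.0407). On day 6 the log2 fold change was -0.96 ± 0.33 (adjusted p = 0.0209), under the fold threshold, and it passed the threshold when replicate 1 of BEFs (-1.02) or the sample numbered 2 or 3 of CiADCs-6d (-1.32 and -1.07) was left out. RSPO1 and RSPO2 were not tested, with at most 17 and 11 counts in a sample. RSPO2 had 9 to 11 counts in each BEFs sample and at most 4 in the CiADCs.

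The sum of the frizzled receptors was higher in the CiADCs, with FZD4 and FZD7 adding most to it. The 11 frizzled genes summed to 105 ± 1.14 FPKM in BEFs, 154 ± 14.4 on day 3 and 153 ± 27.4 on day 6. FZD1 and FZD8 gave 75.1% ± 1.17 of this sum in BEFs and 39.5% ± 4.14 and 37.4% ± 1.72 in the CiADCs, although neither gene was called against BEFs. FZD4 and FZD7 went from 4.79% ± 0.411 to 48.7% ± 4.21 and 50.6% ± 0.148. Of the 10 frizzled genes tested, 4 rose on day 3 (40%, against 18.2% of all tested genes), and 5 rose (50%, against 21.9%) and 1 fell (10%, against 13.4%) on day 6.

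FZD7 (ncbi_524255), a receptor known from stem cells, changed the most. It was at 2.24, 2.64 and 3.42 FPKM in BEFs, 54.5, 56.2 and 58.95 on day 3 and 71.5, 49.4 and 55.5 on day 6. Every CiADCs sample was at least 10 times the highest BEFs sample, and by mean FPKM FZD7 became the first of the frizzled genes after being sixth in BEFs. It rose by 4.33 ± 0.18 (adjusted p = 1.77e-09, edgeR) and 4.37 ± 0.18 (adjusted p = 1.44e-09), a fold change of 20.2 and 20.7. FZD4 (ncbi_445416), the receptor for Norrin as well as for Wnt, was at 2.39, 2.41 and 1.99 FPKM in BEFs, 18.52, 16.2 and 19.2 on day 3 and 21.6, 18.1 and 16.7 on day 6. The days overlapped and lay well above BEFs. Its rise was 2.97 ± 0.14 (adjusted p = 3.57e-09) and 3.02 ± 0.14 (adjusted p = 2.62e-09).

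At a lower level, FZD5 (ncbi_538536) stood at 0.32, 0.12 and 0.33 FPKM in BEFs, 0.75, 0.81 and 0.93 on day 3 and 1.44, 1.33 and 1.72 on day 6. The 3 groups did not overlap. It rose by 1.69 ± 0.30 (adjusted p = 0.000418, edgeR) and 2.53 ± 0.30 (adjusted p = 1.13e-05), and the step between the days was 0.84 ± 0.27 (adjusted p = 0.0379), under the fold threshold. FZD10 (ncbi_515323) gave 0.19, 0.17 and 0.20 FPKM in BEFs, 1.3, 1.13 and 0.93 on day 3 and 1.65, 1.03 and 0.63 on day 6. All CiADCs were above BEFs, with the widest spread on day 6. Its rise was 2.55 ± 0.40 (adjusted p = 0.000149) and 2.52 ± 0.40 (adjusted p = 0.000125).

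FZD9 (ncbi_521364) stayed under 1 FPKM in every group and was called only with the later samples. It had 23 to 28 counts in BEFs, 12 to 27 on day 3 and 49 to 58 on day 6. Day 3 overlapped BEFs and day 6 lay above both. The log2 fold change was -0.33 ± 0.37 on day 3 (adjusted p = 0.458, edgeR) and 1.18 ± 0.34 on day 6 (adjusted p = 0.00828), and day 6 exceeded day 3 by 1.52 ± 0.35 (adjusted p = 0.00881).

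FZD2 (ncbi_538507), one of the receptors of WNT5A, was the frizzled gene that fell. It went from 5.13, 5.46 and 4.68 FPKM in BEFs to 2.26, 3.30 and 3.23 on day 3 and 2.71, 1.48 and 2.23 on day 6. All CiADCs lay below BEFs. The change was -0.81 ± 0.21 on day 3 (adjusted p = 0.00589, edgeR), under the fold threshold, and it fell by 1.28 ± 0.22 on day 6 (adjusted p = 0.000227).

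The main receptors of the fibroblasts moved less. FZD1 (ncbi_445417), the first frizzled gene by mean FPKM in BEFs, was at 47.4, 45.4 and 44.0 FPKM there, 35.0, 28.7 and 38.0 on day 3 and 26.9, 23.0 and 24.2 on day 6. Its samples were lower in CiADCs-3d than in BEFs and lower again in CiADCs-6d, with no overlap. The log2 fold changes of -0.45 ± 0.11 (adjusted p = 0.00481, edgeR) and -0.92 ± 0.11 (adjusted p = 1.81e-05) were under the fold threshold, and the day 6 value passed it without CiADCs-6d replicate 1 (-1.01). FZD8 (ncbi_616913) was at 33.0, 32.9 and 34.0 FPKM in BEFs, 36.2, 19.4 and 25.9 on day 3 and 45.4, 24.6 and 28.8 on day 6. The sample numbered 1 was the highest on both days, the CiADCs overlapped BEFs, and the test gave -0.32 ± 0.23 (adjusted p = 0.243) and -0.05 ± 0.23 (adjusted p = 0.851).

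FZD6 (ncbi_445418) was at 7.73, 9.30 and 8.30 FPKM in BEFs, 6.50, 7.31 and 7.15 on day 3 and 5.74, 5.94 and 4.42 on day 6. Its levels stepped down without overlap, and the day 6 difference of -0.69 ± 0.13 (adjusted p = 0.000411, edgeR) was under the fold threshold. FZD3 (ncbi_445419), at 6.65, 7.21 and 6.45 FPKM in BEFs, was at 9.46, 4.22 and 4.33 on day 3 and 6.70, 7.42 and 7.58 on day 6. On day 3 its sample numbered 1 lay above BEFs and the other two below, and neither day was called. A further table entry named FZD3 carries the RefSeq description frizzled-3-like and had no count in any sample. Reads shared between such copies were thus not assigned to it, and whether the FZD3 counts include such reads cannot be told.

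LRP5 and LRP6, the coreceptors of the beta-catenin branch, were higher in the CiADCs by less than the fold threshold. LRP5 (ncbi_534450) was at 7.29, 6.38 and 8.02 FPKM in BEFs, 13.0, 13.5 and 12.3 on day 3 and 13.0, 7.90 and 9.98 on day 6. Day 3 lay above BEFs and day 6 overlapped them. The log2 fold change was 0.82 ± 0.16 (adjusted p = 0.000846, edgeR) and 0.48 ± 0.16 (adjusted p = 0.0191). LRP6 (ncbi_536328) was at 6.98, 7.17 and 7.74 FPKM in BEFs, 9.74, 10.7 and 9.55 on day 3 and 10.4, 9.98 and 11.03 on day 6. It was above BEFs in all 6 CiADCs samples, with 0.49 ± 0.09 (adjusted p = 0.000437) and 0.57 ± 0.09 (adjusted p = 0.000108).

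**Figure D3:**
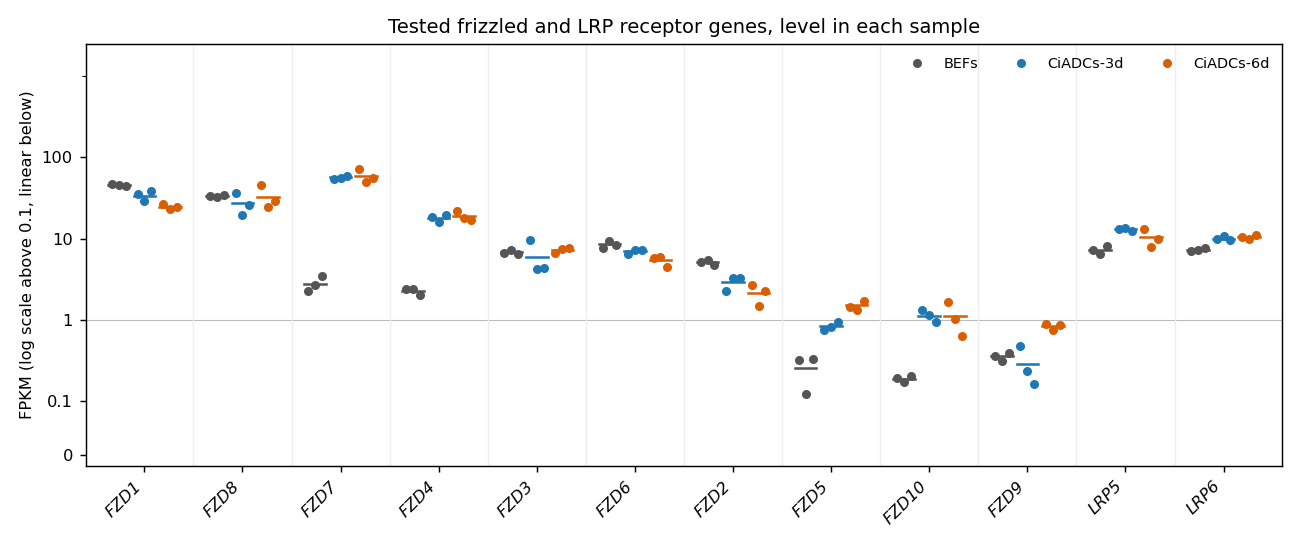
FPKM of the 12 tested receptor genes in each sample (y axis, logarithmic above 0.1 and linear below), with BEFs in grey, CiADCs-3d in blue, CiADCs-6d in orange, points for samples and bars for the mean of 3. FZD7 and FZD4 sit above 10 in all CiADCs samples and below 4 in BEFs, while FZD1 steps down from BEFs to day 3 and day 6.

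**Figure D4:**
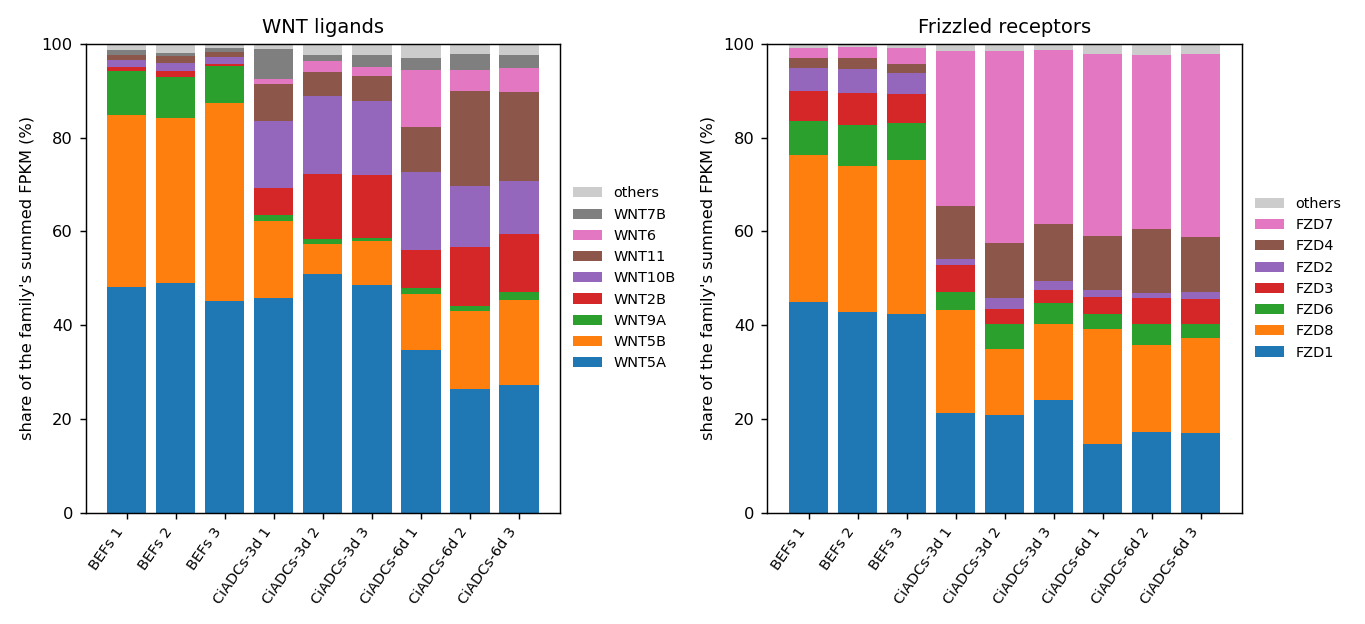
Share of each gene in the summed FPKM of its family (y axis, %) in each of the 9 samples (x axis), for the WNT ligands on the left and the frizzled receptors on the right. WNT5A and WNT5B fill 84.2% to 87.5% of the ligand bars in BEFs and 42.9% to 46.7% in CiADCs-6d, and FZD4 and FZD7 fill 4.39% to 5.22% and 50.4% to 50.7% of the receptor bars.

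The antagonists that bind the ligand had a higher ratio of summed FPKM to BEFs than any other class of members. Their sum went from 12.8 ± 1.62 FPKM in BEFs to 533 ± 89.6 on day 3 and 496 ± 150 on day 6. In each BEFs sample this sum was 0.112 to 0.141 times that of the frizzled genes, and in the CiADCs it was 2.61 to 4.33 times on day 3 and 2.96 to 3.63 times on day 6. SFRP2, SFRP4 and SFRP5 carried 98.5% ± 0.423 and 98.6% ± 0.371 of the sum in the CiADCs. Of the 5 members tested, SFRP2, SFRP4, SFRP5 and WIF1 rose on both days (80%, against 18.2% of all tested genes on day 3 and 21.9% on day 6). None fell (against 9.94% and 13.4%). SFRP5 and WIF1 had at most 3 counts in any BEFs sample and passed the filter on low counts through the CiADCs samples.

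SFRP2 (ncbi_510821), a secreted frizzled-related protein of mesenchymal tissue, was at 7.56, 6.98 and 9.74 FPKM in BEFs, 199, 348 and 312 on day 3 and 356, 199 and 196 on day 6. The samples numbered 1 were the lowest on day 3 and the highest on day 6, and all CiADCs lay far above BEFs. It rose by 5.13 ± 0.30 (adjusted p = 2.99e-08, edgeR) and 4.91 ± 0.30 (adjusted p = 3.22e-08), 35.0-fold and 30.1-fold.

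SFRP4 (ncbi_518004), known as a secreted product of fat tissue and bone, was at 0.83, 1.08 and 1.32 FPKM in BEFs, 172, 182 and 180 on day 3 and 259.8, 169.8 and 193 on day 6. On both days every sample was over 100 times the highest of BEFs, and the days overlapped. The rise of 7.34 ± 0.22 (adjusted p = 1.21e-10, edgeR) and 7.55 ± 0.22 (adjusted p = 1.09e-10) was the largest among members with more than 10 counts in every BEFs sample.

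SFRP5 (ncbi_282069), also known as a protein secreted by fat cells, was nearly silent in BEFs. It had 3, 2 and 1 counts there, and 50.8, 57.9 and 73.3 FPKM on day 3 and 46.3, 21.8 and 26.3 on day 6. The ratio of scaled counts to BEFs was 1200 on day 3 (exact 95% counting interval 551 to 3271) and 609.7 on day 6 (279.8 to 1663), with adjusted p = 3.13e-09 and 6.86e-09 (edgeR). Day 6 lay below day 3 with no overlap, at -0.97 ± 0.23 (adjusted p = 0.0108), under the fold threshold. That difference passed the threshold when replicate 1 of CiADCs-3d (-1.12), replicate 1 of CiADCs-6d (-1.39) or both were left out (-1.52 for both, adjusted p = 7.47e-07).

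SFRP1 (ncbi_282068) was the first antagonist of its class after SFRP2 in BEFs and changed least. It was at 3.35, 3.67 and 3.52 FPKM in BEFs, 7.55, 6.00 and 7.41 on day 3 and 6.63, 6.32 and 6.03 on day 6. All CiADCs lay above BEFs. The log2 fold change was 0.97 ± 0.12 (adjusted p = 1.53e-05, edgeR) and 0.81 ± 0.12 (adjusted p = 5.38e-05), just under the fold threshold, and day 3 passed it without CiADCs-3d replicate 2 (1.06).

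WIF1 (ncbi_533672) and FRZB, antagonists known from cartilage and bone, stayed under 1 FPKM. WIF1 had 2 counts in each BEFs sample, 28, 20 and 34 on day 3 and 4, 18 and 12 on day 6. Its ratio to BEFs was 14.8 (exact 95% counting interval 6.50 to 41.4) on day 3 and 6.21 (2.58 to 18.1) on day 6, with adjusted p = 0.000151 and 0.00422 (edgeR). Day 6 against day 3 gave -1.23 ± 0.45 (adjusted p = 0.0605), or -1.69 (adjusted p = 0.0452) without CiADCs-6d replicate 2. FRZB was not tested, with at most 1 count in BEFs, 3 on day 3 and 8 on day 6.

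The Dickkopf genes split. DKK3 (ncbi_506627), which does not act on LRP5 or LRP6 as the others do, was by far the highest, at 167, 162 and 163 FPKM in BEFs, 225, 256 and 241 on day 3 and 420.4, 344 and 366 on day 6. The 3 groups stepped up without overlap. The change was 0.54 ± 0.10 on day 3 (adjusted p = 0.00083, edgeR), under the fold threshold, and DKK3 rose by 1.16 ± 0.11 on day 6 (adjusted p = 1.16e-06). It held the class sum of 172 ± 2.94, 242.5 ± 15.9 and 378.5 ± 39.5 FPKM almost alone.

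DKK2 (ncbi_541161), an LRP antagonist of mesenchyme, went the other way. It was at 7.54, 5.92 and 6.35 FPKM in BEFs, 0.79, 1.16 and 1.18 on day 3 and 0.60, 0.69 and 0.86 on day 6. All CiADCs lay far below BEFs. It fell by 2.67 ± 0.21 (adjusted p = 4.92e-07, edgeR) and by 3.24 ± 0.22 (adjusted p = 1.06e-07), the largest fall of any member on day 6. DKK1 (ncbi_504445), the best known LRP antagonist, gave 1.3, 2.18 and 1.92 FPKM in BEFs, 0.51, 0.81 and 0.66 on day 3 and 1.28, 1.04 and 1.01 on day 6. It fell by 1.45 ± 0.34 on day 3 (adjusted p = 0.00266) and was not called on day 6, at -0.73 ± 0.32 (adjusted p = 0.0584). DKK4 had 2 counts in 1 sample and none in the others.

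**Figure D5:**
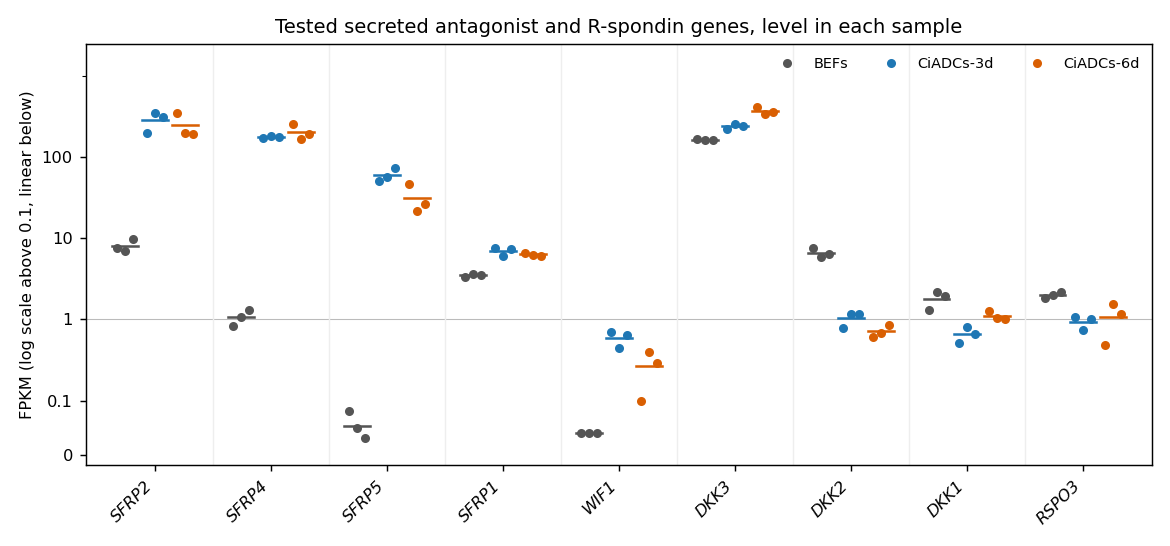
FPKM of the 9 tested antagonist and R-spondin genes in each sample (y axis, logarithmic above 0.1 and linear below), with BEFs in grey, CiADCs-3d in blue, CiADCs-6d in orange, points for samples and bars for the mean of 3. SFRP2, SFRP4 and SFRP5 lie above 20 in all CiADCs samples and below 10 in BEFs, and DKK2 lies below 1.2 in the CiADCs and above 5.9 in BEFs.

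Inside the cell, AXIN2 (ncbi_511619) rose and TCF7L1 fell, while the other 5 members were not called. AXIN2, a scaffold of beta-catenin breakdown that is itself a standard target gene of the beta-catenin branch, was at 0.24, 0.09 and 0.34 FPKM in BEFs, 2.21, 2.62 and 1.89 on day 3 and 3.70, 4.39 and 4.74 on day 6. Its groups stepped up without overlap. It rose by 3.33 ± 0.32 (adjusted p = 2.15e-06, edgeR) and 4.26 ± 0.31 (adjusted p = 1.76e-07), 10.1-fold and 19.2-fold. The step between the days, 0.93 ± 0.25 (adjusted p = 0.0168), was under the fold threshold and passed it without CiADCs-3d replicate 2 (1.05). Its paralogue AXIN1 (ncbi_504357), which is not a target gene, held at 15.99, 15.01 and 16.5, then 14.01, 13.7 and 13.5, then 16.7, 15.03 and 16.4 FPKM, with adjusted p of 0.0545 and 0.908.

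CTNNB1 (ncbi_539003), which encodes beta-catenin, was at 194, 198 and 209 FPKM in BEFs, 238, 503 and 413 on day 3 and 244, 202 and 212 on day 6. Day 3 lay above BEFs, with its sample numbered 1 nearer to BEFs than to the other two, and day 6 overlapped BEFs. The log2 fold change was 0.93 ± 0.21 on day 3 (adjusted p = 0.00224, edgeR), under the fold threshold, and 0.09 ± 0.21 on day 6 (adjusted p = 0.73). Without CiADCs-3d replicate 1, CTNNB1 passed the threshold against BEFs (1.22, adjusted p = 4.11e-06) and was lower on day 6 than on day 3 (-1.15, adjusted p = 9.67e-05).

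TCF7L1 (ncbi_515303), a TCF factor that mainly represses, was at 6.85, 6.67 and 6.77 FPKM in BEFs, 2.53, 2.55 and 2.91 on day 3 and 2.31, 2.21 and 2.32 on day 6. Each group held close together, and all CiADCs lay below BEFs. It fell by 1.36 ± 0.13 (adjusted p = 2.14e-06, edgeR) and by 1.61 ± 0.13 (adjusted p = 4.31e-07).

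The other TCF and LEF genes were not called. TCF7L2 (ncbi_540481), the first of them by mean FPKM, was at 22.4, 20.8 and 22.3 FPKM in BEFs, 20.0, 14.7 and 20.2 on day 3 and 20.7, 26.2 and 26 on day 6, and TCF7 (ncbi_782690) was at 10.7, 9.76 and 11.5, then 12.0, 7.21 and 7.15, then 9.31, 9.76 and 9.97. For these, adjusted p against BEFs lay between 0.114 and 0.382 (edgeR). LEF1, under 1 FPKM in every group, had 26 to 33 counts per sample in BEFs, 29 to 70 on day 3 and 35 to 58 on day 6. Its log2 fold changes of 0.81 ± 0.31 (adjusted p = 0.0406) and 0.77 ± 0.31 (adjusted p = 0.0437) were under the fold threshold, and day 3 passed it without CiADCs-3d replicate 1 (1.03).

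Between the days, 3 of the 38 tested members were higher on day 6, which is 7.89% against 4.09% of all tested genes. They were WNT6, WNT11 and FZD9. None was called lower by edgeR, against 3.22% of all tested genes. At an unadjusted p under 0.05, 7 members were lower, namely CTNNB1, DKK2, FZD1, FZD6, SFRP5, WIF1 and WNT5A, and 10 were higher, where 19.7% and 21.1% of all tested genes were. DESeq2 also called 0 lower, and limma on log2(FPKM + 0.1) called 2. The median difference of the members was 0.11 on the log2 scale, where that of all tested genes was 0.01.

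The rest of the pathway was read from 99 genes in 9 lists, of which 89 were tested. On day 3, 18 rose and 11 fell (20.2% and 12.4%, against 18.2% and 9.94% of all tested genes), and on day 6, 22 rose and 16 fell (24.7% and 18%, against 21.9% and 13.4%). Between the days 3 rose and 2 fell (3.37% and 2.25%, against 4.09% and 3.22%). These shares lie near those of all tested genes, which are also the background for the counts in single lists.

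Genes for making and removing active ligand all rose on both days. WLS (ncbi_528123), which carries Wnt proteins to the cell surface, was at 35.0, 37.3 and 35.9 FPKM in BEFs, 173, 121 and 124 on day 3 and 155, 172 and 170.3 on day 6. It rose by 1.92 ± 0.13 (adjusted p = 9.97e-08, edgeR) and 2.16 ± 0.13 (adjusted p = 3.04e-08). PORCN, which attaches the lipid to Wnt, rose by 1.23 ± 0.18 and 1.3 ± 0.18. NOTUM, which removes that lipid outside the cell and is itself a target gene, rose by 1.95 ± 0.44 and 1.49 ± 0.45, and the day 6 call was lost without CiADCs-6d replicate 1 (1.13, adjusted p = 0.0564).

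Among 12 other ligands and coreceptors, 2 rose and 3 fell on day 3, and 2 rose and 4 fell on day 6. GPC4 (ncbi_540179), a cell surface heparan sulphate proteoglycan, was at 196, 194 and 171 FPKM in BEFs, 35.7, 19.8 and 28.2 on day 3 and 22.0, 35.6 and 32.8 on day 6. It fell by 2.73 ± 0.22 (adjusted p = 4.28e-07, edgeR) and by 2.61 ± 0.21 (adjusted p = 4.75e-07). Its relative GPC3 rose by 2.21 ± 0.30 and 2.49 ± 0.30, from a mean of 0.577 FPKM to 2.71 and 3.35. PTK7, a planar polarity coreceptor, fell by 1.46 ± 0.16 and 1.90 ± 0.16. NDP, which encodes Norrin, the other ligand of FZD4, fell by 1.11 ± 0.26 and 1.91 ± 0.27, and the day 3 call was lost without CiADCs-3d replicate 1 (-0.90, adjusted p = 0.0113).

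Of the R-spondin receptors and the ligases that remove frizzled, LGR4 had the highest level, at 34.7, 33.9 and 24.9 FPKM on average, with a day 6 log2 fold change of -0.52 ± 0.12 (adjusted p = 0.00201, edgeR) under the fold threshold. LGR5, also a target gene, had 2 counts in 1 sample and none in the others. RNF43 rose from a mean of 0.0667 to 0.153 and 0.353 FPKM, by 1.39 ± 0.51 (adjusted p = 0.0323) and 2.46 ± 0.47 (adjusted p = 0.000577). The day 3 call of RNF43 was lost without each single CiADCs-3d sample, and without BEFs replicate 1 or 3, with adjusted p between 0.056 and 0.116. ZNRF3 fell on day 6 by 1.18 ± 0.20 (adjusted p = 0.00022) and was under the fold threshold on day 3.

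Among 4 tested of 9 other antagonists, DKKL1, a Dickkopf-like secreted protein, rose from a mean of 16.3 FPKM to 51.1 and 39.1, by 1.63 ± 0.11 and 1.22 ± 0.11. APCDD1, a membrane antagonist and target gene, was at 0.98 ± 0.22 on day 3 and rose by 1.33 ± 0.22 on day 6. It passed the threshold on day 3 without BEFs replicate 3 (1.20), CiADCs-3d replicate 1 (1.01) or CiADCs-3d replicate 3 (1.07). TPBG and KREMEN1 were not called.

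In the cytoplasm, CSNK1A1, the priming kinase of beta-catenin, rose from a mean of 66.6 FPKM to 207 and 173, by 1.62 ± 0.14 (adjusted p = 9.79e-07, edgeR) and 1.34 ± 0.14 (adjusted p = 3.72e-06). NKD2 and DACT1, which act on Dishevelled, fell on both days, by 1.73 ± 0.21 and 1.67 ± 0.21 for NKD2 and by 1.48 ± 0.17 and 1.74 ± 0.18 for DACT1. FRAT2, which binds GSK3, rose on day 6 by 1.80 ± 0.22, and its day 3 value of 0.96 ± 0.22 passed the threshold without BEFs replicate 1 (1.08) or CiADCs-3d replicate 3 (1.01). Of 11 genes of the destruction complex and its turnover, PPP2R5A, a regulatory subunit of protein phosphatase 2A, rose from a mean of 11.8 FPKM to 104 and 98.2, by 3.13 ± 0.12 (adjusted p = 1.18e-09) and 3.02 ± 0.12 (adjusted p = 1.26e-09). SIAH1, a ubiquitin ligase for beta-catenin, rose by 1.58 ± 0.15 and 1.08 ± 0.15. APC, the scaffold of the complex, fell by 1.03 ± 0.10 and 1.17 ± 0.10, and the day 3 call was lost without BEFs replicate 3 (a log2 fold change just under 1 in size). GSK3A was under the fold threshold on both days.

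Of 14 tested nuclear cofactors, 2 rose on day 3 and 1 on day 6. HIPK2, a kinase of TCF factors, rose from a mean of 2.1 FPKM to 9.22 and 12.8, by 2.12 ± 0.19 (adjusted p = 1.11e-06, edgeR) and 2.58 ± 0.19 (adjusted p = 1.52e-07). TLE2, a corepressor, rose on day 3 by 1.44 ± 0.30 and was not called on day 6. TLE1 and TLE3 were higher on day 6 by 0.94 ± 0.18 and 0.98 ± 0.10, under the fold threshold, which TLE1 passed without BEFs replicate 3 (1.02) or CiADCs-6d replicate 1 (1.10) and TLE3 without BEFs replicate 3.

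The 18 feedback and target genes of the beta-catenin branch, AXIN2 aside, did not move one way. Of 16 tested, 5 rose and 3 fell on day 3 (31.2% and 18.8%, against 18.2% and 9.94% of all tested genes), and 7 rose and 4 fell on day 6 (43.8% and 25%, against 21.9% and 13.4%). SP5 had no count in any sample. Besides NOTUM, RNF43 and APCDD1, the targets that rose were TBX3, a T-box factor, PRICKLE1, MYC, RUNX2 and NKD1. TBX3 went from a mean of 1.14 FPKM to 4.16 and 5.77, by 1.88 ± 0.13 (adjusted p = 1.2e-07, edgeR) and 2.33 ± 0.13 (adjusted p = 1.44e-08). PRICKLE1, a planar polarity gene, went from 16.1 to 71.1 and 55.6, by 2.12 ± 0.09 and 1.75 ± 0.09.

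MYC was at 12.6, 13.2 and 15.9 FPKM in BEFs, 31.3, 17.9 and 28.7 on day 3 and 42.6, 55.04 and 49.7 on day 6. Its value of 0.88 ± 0.19 on day 3 passed the threshold without CiADCs-3d replicate 2 (1.09), and it rose by 1.79 ± 0.19 on day 6 (adjusted p = 4.17e-06, edgeR). RUNX2, a factor of the bone lineage, was not called on day 3 and rose on day 6, by 1.73 ± 0.18 against BEFs (adjusted p = 3.79e-06) and by 1.38 ± 0.18 against day 3 (adjusted p = 0.000375). NKD1, a feedback inhibitor, rose on day 3 by 2.28 ± 0.56 (adjusted p = 0.00382), with 0.28, 1.25 and 0.82 FPKM there against 0.12, 0.20 and 0.15 in BEFs. On day 6 NKD1 was at 0.19, 0.43 and 0.16 FPKM, lower than on day 3 by -1.60 ± 0.53 (adjusted p = 0.0419), a call that was lost when any 1 sample other than CiADCs-3d replicate 1 or CiADCs-6d replicate 2 was left out and that moved to -2.19 without the latter.

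The targets that fell were MSX2 (by 1.77 ± 0.20 and 1.23 ± 0.19) and TNFRSF19 (by 1.83 ± 0.36 and 2.98 ± 0.41) on both days, the cell cycle gene CCND1 on day 3, and CCN4 and ZNRF3 on day 6. Both calls of TNFRSF19 were lost with limma on log2(FPKM + 1), which understates changes of low genes and gave -0.48 and -0.55. CCND1 was at 175, 178 and 209 FPKM in BEFs, 92.4, 82.6 and 81.1 on day 3 and 100.03, 87.4 and 106 on day 6. It fell by 1.16 ± 0.11 on day 3 (adjusted p = 2.98e-06, edgeR). On day 6 the value was -0.98 ± 0.11, which passed the threshold when replicate 1 or 2 of BEFs (-1.03 each) or the sample numbered 1 or 3 of CiADCs-6d (-1.01 and -1.07) was left out. CCN4 fell by 1.12 ± 0.19 on day 6. CCN5, LBH and MSX1 were not called, and CCN5 became lower on day 6 than on day 3 when both CiADCs samples numbered 1 were left out (-1.16, adjusted p = 2.56e-06, against -0.40 with all samples).

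In the planar polarity and calcium branch, 4 of 18 genes, PRICKLE1 among them, rose and 2 fell on day 3 (against 18.2% and 9.94% of all tested genes), and 5 rose and 4 fell on day 6 (against 21.9% and 13.4%). Of the 4, VANGL2 (-1.20 ± 0.49) and NFATC2 (-1.07 ± 0.42), named after their values were seen, were lost without any 1 BEFs sample (adjusted p = 0.0729 to 0.109 and 0.0596 to 0.118, edgeR) or without CiADCs-6d replicate 2 (0.164 and 0.0794), and VANGL2 moved to -2.13 without CiADCs-6d replicate 1. VANGL2 was also lost without CiADCs-6d replicate 3 (-0.97, adjusted p = 0.153, edgeR) or CiADCs-3d replicate 3 (-1.21, adjusted p = 0.0581). NFATC2 was also lost without CiADCs-6d replicate 1 (-0.66, adjusted p = 0.0563) or without both CiADCs samples numbered 1 (-0.66, adjusted p = 0.0346). CELSR2 (ncbi_538194), an atypical cadherin of planar polarity, was at 0.14, 0.12 and 0.23 FPKM in BEFs, 2.53, 2.39 and 2.31 on day 3 and 6.12, 4.82 and 5.49 on day 6. Its groups stepped up without overlap, by 3.83 ± 0.20 (adjusted p = 1.28e-08, edgeR) and 4.99 ± 0.21 (adjusted p = 1.37e-09) against BEFs and by 1.15 ± 0.16 (adjusted p = 0.000606) between the days. PLCB4, a phospholipase that raises calcium, rose by 2.59 ± 0.20 and 2.18 ± 0.20. NFATC1, a factor that calcium brings to the nucleus, fell from a mean of 23.8 FPKM to 6.27 and 7.38, by 1.95 ± 0.13 (adjusted p = 1.12e-07) and 1.75 ± 0.13 (adjusted p = 2.12e-07).

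Without both CiADCs samples numbered 1, several of the named pathway genes passed the threshold between the days that had not done so with all samples. Lower on day 6 were NOTUM (-1.16, against -0.46 with all samples), NDP (-1.42 against -0.80) and TLE2 (-1.4 against -0.79), beside CCN5 above. Higher on day 6 were RNF43 (1.4 against 1.08), TLE1 (1.06 against 0.80) and MYC (1.11 against 0.91).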

How the data were processed

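RNA-seq covered 9 samples, with 3 in each of the BEFs, CiADCs-3d and CiADCs-6d groups. The deposited table gave an expected count per gene and sample, not normalized, and FPKM values that the authors had scaled to gene length and library size. RSEM, StringTie 1.3.1, HISAT2 2.2.4 and fastp 0.18.0 are listed by the submitters' processing notes with no role given, whereas the methods name TopHat and HTSeq. The genome build is not given in the sources used here. The labels name a kit that removes ribosomal RNA and the methods name selection by oligo(dT).

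Members were matched to the symbol column without regard to case, since 10 of the 52 symbols were in mixed case, and 51 had the same name as their Gene ID in RefSeq. The members, the classes, the 9 lists of 99 other pathway genes and the markers were chosen with earlier results of these data known. Counts were rounded. filterByExpr of edgeR 4.0.16 (minimum count 10, minimum total 15) kept 14020 genes and removed 7492. Libraries were scaled by TMM, and glmQLFit and glmQLFTest were run on all 9 samples with 1 coefficient per group in R 4.3.3. SE was derived from the F statistic, as log2FC/sqrt(F). Values in every sample are given for members with a mean of at least 1 FPKM in at least 1 group. Of the other pathway genes, the text names every feedback gene and, in each other list, up to 4 with the largest change among those with at least 1 FPKM in 1 group. SFRP5, WIF1 and WNT6 were too low in BEFs for a fitted fold, so ratios of scaled counts with exact intervals (confidence level 0.95) or bounds against 3 counts are given, which cover counting error only.

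The pipeline was tested on simulated data. Alternatives, 21 planned and 1 added after seeing the data, covered scaling, filter, thresholds, DESeq2 1.42.0, limma 3.58.1 on log2(FPKM + 1) and log2(FPKM + 0.1), a replicate block, and each sample left out in turn.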

Additional observations from a re-analysis of the deposited data

Results flagged for a closer look

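In 8 genes the change against BEFs differed between the days by the edgeR test of day 6 against day 3. Among the members these were WNT11 (log2 difference 1.62), WNT6 (2.24) and FZD9 (1.52), all higher on day 6. Among the other pathway genes they were RUNX2 (1.38), CELSR2 (1.15) and NFATC2 (1.99), higher on day 6, and NKD1 (-1.60) and ROR1 (-1.26), lower on day 6. Of the tested members, 7.89% were thus higher and 0% lower, and of the tested pathway genes 3.37% and 2.25%. Of all tested genes, 4.09% were higher and 3.22% lower, so the number of flagged genes is not a result in itself. NFATC2, a calcium-dependent factor, was under 1 FPKM in every group, and its call was lost without CiADCs-3d replicate 2 (1.76, adjusted p = 0.0551) or CiADCs-6d replicate 3 (1.38, adjusted p = 0.08). The call of NKD1 was lost in 7 of the 9 settings that left out 1 sample.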

How the results depend on the processing

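No call of a member changed direction under any alternative. Of the calls, 13 of 20 on day 3, 13 of 21 on day 6 and 0 of 3 between the days were kept under all alternatives that gave a value. The largest losses came from limma on log2(FPKM + 1), with or without the filter, which understates changes of low genes and called 9 members higher on day 3 in place of 14 and 3 lower on day 6 in place of 5. It also lost the day 6 rises of WIF1, WNT7B, FZD5, FZD9 and FZD10 and the day 3 falls of DKK1 and RSPO3. Members lower on day 6 numbered 9 by adjusted p alone and 3 with glmTreat. Between the days, members higher numbered 7 by adjusted p alone and 0 with glmTreat, in place of 3. Members lower, 0 in the report, numbered 5 by adjusted p alone, 2 with upper-quartile scaling, 2 with limma on log2(FPKM + 0.1), 2 without both CiADCs samples numbered 1, 1 with the replicate block, and 0 to 2 with 1 sample left out. For the other pathway genes, day 3 counts were 31 higher and 28 lower by adjusted p alone and 11 higher with limma on log2(FPKM + 1), with or without the filter. Day 6 counts were 35 higher and 28 lower by adjusted p alone, and 9 lower with glmTreat and with limma on log2(FPKM + 1), with or without the filter. Between the days they were 16 higher and 13 lower by adjusted p alone, 0 and 0 with glmTreat, 8 and 8 without both samples numbered 1, and, lower, 1 with only the 2 groups compared, 0 with limma on log2(FPKM + 1), with or without the filter, 1 on log2(FPKM + 0.1), and 1 to 4 with 1 sample left out. The cause was not tested. Calls between the days were 56% higher over all genes, and 70.2% with limma on log2(FPKM + 1).

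The labels do not say whether a replicate number marks samples that belong together. Deviations of same-numbered samples correlated at -0.45 to 0.26 over the tested genes, and those of differently numbered samples at -0.24 to 0.37. With 3 samples per group these values cannot settle whether the samples were paired. The replicate block changed no other count of members and the pathway counts by at most 1. A count of 0 allows up to 3 counts per library, so the WNT genes listed at 0 were not detectable at this depth.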

Other observations

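The table's own KEGG annotation gives a further view of the pathway, chosen after its values were seen. It assigns 152 genes to Wnt signalling, of which 124 were tested. On day 3, 26 were higher and 15 lower than in BEFs (21.0% and 12.1%), and on day 6, 29 and 19 (23.4% and 15.3%), beside 18.2% and 9.94% and then 21.9% and 13.4% of all tested genes. Without the members, 88 genes were tested, of which 12 rose and 10 fell on day 3 and 14 rose and 14 fell on day 6.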
